A study of Mus musculus with 12 samples.

Results

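Cluster 2 of the 28W kidney library is a group of sorted kidney cells that was labelled for heat-shock genes and mitochondrial RNA. Its members were all cell barcodes with number 2 in the deposited list of clusters, namely 806 of 7135 kidney cells (11.3%, exact binomial 95% interval 10.6 to 12.1) and of 20510 cells in the whole series. The cells came from kidneys of female NZB/W F1 mice, a hybrid strain that develops lupus nephritis, at an age of 28 weeks, and were sorted as PD-1+CD44+CD8+ T cells after collagenase digestion and a Percoll gradient. Cells of the same sort from spleen at 12 weeks (12W) and at 28 weeks (28W) formed the other libraries, and for 28W spleen the sample titles give that age while a separate age field gives 12 weeks. Mice of all 3 groups were of 1 strain, and no treatment is named for them. Each group has 4 samples in the labels, which do not say whether these came from separate mice, and its table pools them, so no value has a replicate. Intervals below are exact 95% intervals for counting error alone, and no comparison carries a test.

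Mitochondria carry a small genome of their own that encodes 13 protein subunits of the respiratory chain and ATP synthase, while most subunits are encoded in the nucleus. Heat-shock proteins are chaperones that fold or refold other proteins, and Hspa1a and Hspa1b are their classical stress-inducible HSP70 members, induced by heat and other damage to proteins. Plasma cells are antibody-secreting B lineage cells whose messenger RNA is dominated by immunoglobulin chains. In a 5′ library the reads start at the beginning of each transcript, so an immunoglobulin chain is read mostly in its variable (V) segment.

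Cells of cluster 2 held the fewest transcripts of all kidney clusters. Recovered unique molecular identifiers (UMIs, 1 per captured transcript) came to 967493, or 1200.4 per cell, against 4577 per cell over the other 11 kidney clusters, which ranged from 1822 in cluster 10 to 11404 in cluster 11. The cluster thus supplied 11.3% of the cells and 3.23% of the UMIs of the library. Of its barcodes 16 also occurred in a spleen library, among 119 such barcodes in the whole kidney library.

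What those UMIs were also set the cluster apart. Immunoglobulin genes with Jchain took 14.9% of them, mitochondrially encoded genes 10.8%, the 3 overlapping or neighbouring genes Gm42418, Gm26917 and AY036118 12.0%, and Lars2 3.43%. These 4 groups together made up 41.1% of the UMIs of cluster 2 and 3.58% of those of the other kidney clusters. Ribosomal protein genes took 7.82% against 25.6%. Since levels are given per 1000000 UMIs of a cluster (CPM), a gene at the same CPM in cluster 2 as elsewhere stands at 0.262 of the UMIs per cell. A gene higher by CPM can therefore be lower per cell, and levels and ratios are of CPM wherever UMIs per cell are not named.

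**Figure D1:**
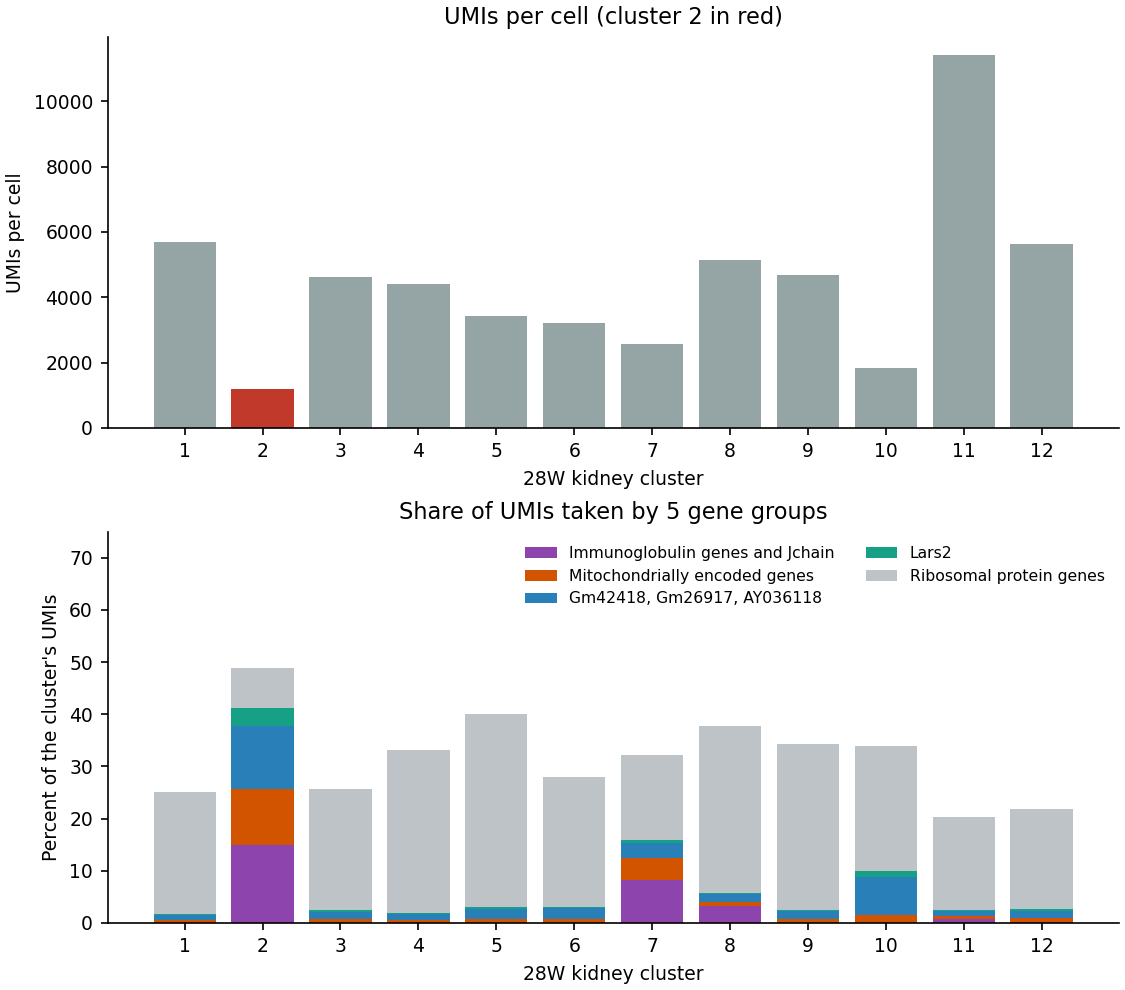
UMIs per cell (upper panel, linear axis from 0) and the percent of each cluster's UMIs taken by 5 gene groups (lower panel, stacked bars) for the 12 clusters of the 28W kidney library. Cluster 2 had the fewest UMIs per cell, 1200.4, and the largest joint share of immunoglobulin, mitochondrial, Gm42418-locus and Lars2 UMIs, 41.1%.

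Among 6426 genes at 20 CPM or more in cluster 2 or in the other kidney clusters, 1200 were at least 2-fold higher in cluster 2 (18.7%) and 1494 at least 2-fold lower (23.2%), with a median log2 ratio of -0.02. These shares describe a cluster against the cells from which it was divided and are no test. Counts within gene lists below cover all listed genes found, also those under 20 CPM, which these shares leave out. For 997 of the 1200 genes cluster 2 was the highest of the 12 clusters, and cluster 10, the next lowest in UMIs per cell, came second most often, as the highest of the other clusters for 795 of them. For 1260 of the 1494 lower genes cluster 2 was the lowest of the 12.

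All 13 mitochondrially encoded genes were at least 2-fold higher in cluster 2 than in the other kidney clusters, and all 13 were at their highest there. Their median log2 ratio was 3.67 (median limits 3.60 to 3.76), beside -0.02 over all genes tested. Summed, they reached 107974 CPM in cluster 2, 42627 in cluster 7 and between 5153 and 14956 in the other 10 clusters. Every member of the list thus stood as the mitochondrial part of the label says. The cluster was chosen with earlier results of these data known, so this describes the label and is no test of it.

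The members differed little among themselves. The highest ratios belonged to complex I subunits, with mt-Nd4l at 8563 CPM against 530 (16.2-fold, 15.7 to 16.6) and mt-Nd4 at 5296 against 331 (an interval of 15.5-fold to 16.6-fold). The cytochrome b gene mt-Cytb stood at 13629 CPM against 948 (14.4-fold), and the ATP synthase gene mt-Atp6 at 14552 against 1177 (12.4-fold). The cytochrome oxidase genes were lowest in the range, with mt-Co1 at 24429 CPM against 2036 (12.0-fold) and mt-Co3 at 8318 against 746 (11.2-fold), apart from mt-Nd6, the complex I gene of the other strand, at 153 CPM against 13.8 (11.1-fold, 9.09 to 13.4). Per cell the excess was smaller but kept its direction, with 129.6 mitochondrial UMIs per cell in cluster 2, 109.6 in cluster 7, 68.1 in cluster 11 and 38.3 over all other kidney clusters.

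The nuclear genes of the same respiratory complexes stood on the other side. Of 28 listed subunits of complexes I to V and cytochrome c, none was at least 2-fold higher and 22 were at least 2-fold lower. Of all genes tested, 18.7% were higher and 23.2% lower. The median log2 ratio of the 28 was -1.62. Cox5a, a cytochrome oxidase subunit, was at 79.6 CPM in cluster 2 against 533 (log2 ratio -2.73), and Uqcrh of complex III at 126 against 725 (-2.51). Only Ndufs1, the largest complex I subunit, had a positive ratio among the 28 (38.2 CPM against 32.4, log2 ratio 0.23). Cluster 2 was lowest of all 12 clusters for the summed list, at 4089 CPM against 10213 to 22440. Mitochondrial and nuclear subunits of the same complexes thus stood in opposite directions.

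RNAs that stay in the nucleus or come from the ribosomal RNA locus were, as a summed list, also highest in cluster 2, at 134647 CPM. The next cluster differed from the mitochondrial order, with 77380 CPM in cluster 10 and 32030 in cluster 7. Gm42418 (GRCm38 chromosome 17, 39846958 to 39848788, plus strand) is annotated where ribosomal RNA sequence lies, and it stood at 113165 CPM in cluster 2, 69528 in cluster 10 and 14830 over the other 11 clusters. Gm26917, just upstream (chromosome 17, 39843013 to 39846341), was at 2010 CPM against 133 (15.2-fold). AY036118 overlaps Gm42418 on the other strand, so the division of UMIs between those 2 genes is uncertain. Lars2, the mitochondrial leucyl-tRNA synthetase (chromosome 9, 123366927 to 123462666), was at 34310 CPM against 2839 (12.1-fold), with 11174 in cluster 10.

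The long noncoding RNA Malat1, which is retained in nuclear speckles, was at 19221 CPM against 3143 (6.12-fold, 6.02 to 6.21). Neat1, the scaffold of paraspeckles, was at 137 CPM against 36.6 (3.76-fold) and Kcnq1ot1, an imprinted antisense RNA, at 83.7 against 15.9 (5.25-fold). Of 7 nuclear RNAs found from the list, 5 were at least 2-fold higher and none 2-fold lower, beside 18.7% and 23.2% of all genes tested. On the per-cell scale Malat1 remained higher, with 23.1 UMIs per cell in cluster 2 and 14.4 in the others, whereas Neat1 was level at 0.165 and 0.167.

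Immunoglobulin was the largest single group of the 4. V, D and J segments alone accounted for 12.7% of the UMIs of cluster 2, constant regions for 0.752% and Jchain for 1.45%. Cluster 2 held 38.6% of all immunoglobulin segment UMIs in the kidney library, cluster 7 held 31.7% and cluster 8 held 23.1%. In clusters 1, 3 to 6, 9 and 10 the same segments made up between 0.00343% and 0.0123% of UMIs, while clusters 11 and 12 held 5.94% and 0.374% of the segment UMIs of the library. The counts were thus concentrated in clusters 2, 7 and 8 and were not at a like level in all clusters. Per cell, immunoglobulin genes with Jchain came to 179 UMIs in cluster 2, 212 in cluster 7 and 166 in cluster 8.

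The segments of cluster 2 were few, and 19 of them, at 500 CPM or more, held 98.9% of its segment UMIs. These 19 were picked by their level in cluster 2, so a high share there was partly set by the choice. For 13 of the 19, at least 90% of all UMIs in the kidney library lay in cluster 2, and 12 were under 50 CPM in both clusters 7 and 8. Like shares were not computed for segments picked by cluster 7 or 8. Cluster 7 also had 19 segments at 500 CPM or more, of which 3 were shared with cluster 2, and cluster 8 had 9, of which 4 were shared. An effective number of 10.8 segments (the inverse of the summed squared shares) described the usage in cluster 2, against 11.7 in cluster 7.

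Individual segments of this pick ranged from nearly confined to cluster 2 to common to 3 clusters. The kappa segment Igkv3-2 (GRCm38 chromosome 6, 70698449 to 70699067, plus strand) led with 22304 UMIs, or 23053 CPM, against 3302 CPM in cluster 8 and 12.8 in cluster 7. Igkv12-38 (chromosome 6, 69943186 to 69943648, minus strand) had 12079 UMIs, 99.8% of those in the library, and 12485 CPM, with 0.674 CPM in cluster 7 and 1.78 in cluster 8. The heavy chain segment Ighv1-42 (chromosome 12, 114937113 to 114937544) was at 4499 CPM and had 0 UMIs in cluster 7, so 99.9% of its UMIs in the library were in cluster 2. Ighv1-14, annotated as a pseudogene, was common to the 3 clusters at 13873, 5160 and 4750 CPM in clusters 2, 7 and 8. V segments share sequence within their families, so the division of UMIs between close relatives, and counts placed on segments annotated as pseudogenes, are uncertain.

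**Figure D2:**
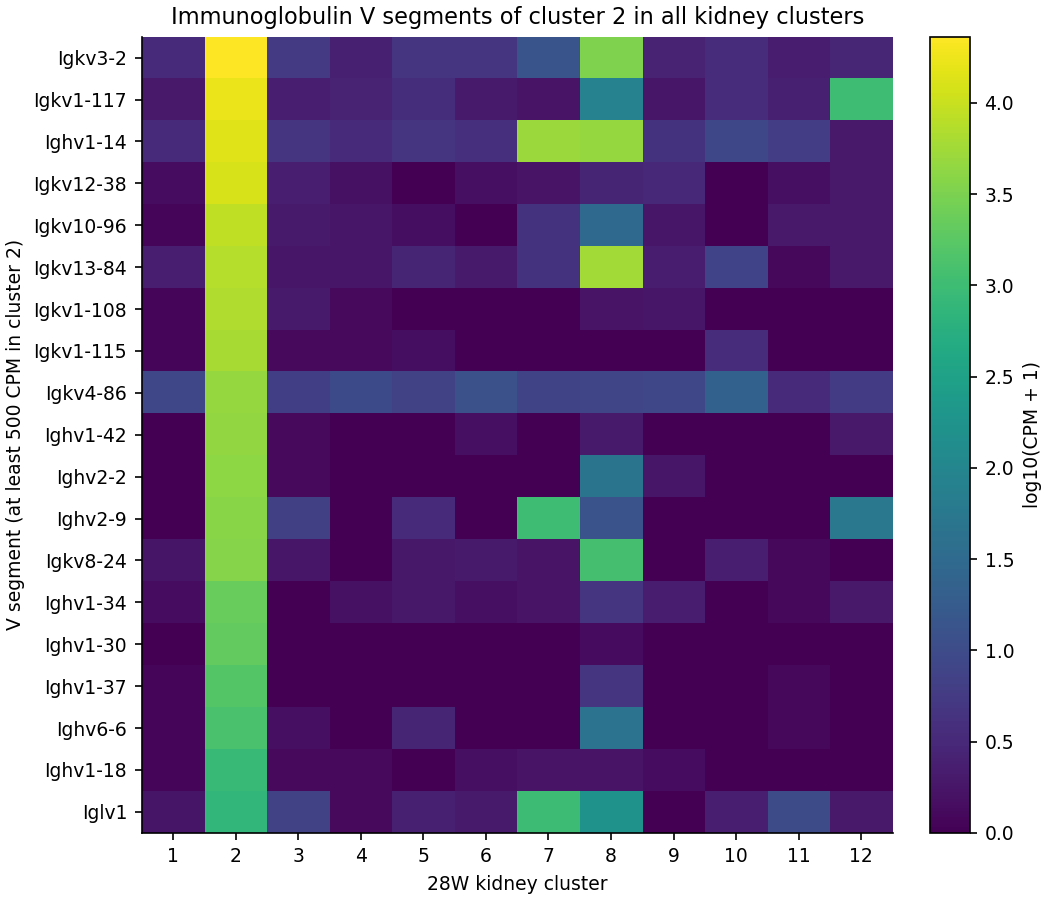
Level of the 19 immunoglobulin V segments at 500 CPM or more in cluster 2 (rows, ordered by UMIs in cluster 2) in the 12 kidney clusters (columns), coloured by log10(CPM + 1). Most rows are bright in cluster 2 alone, such as Igkv12-38 at 12485 CPM, and the exceptions lie mainly in clusters 7 and 8, such as Ighv1-14 at 5160 and 4750 CPM.

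Other genes of antibody-secreting cells stood with the segments. Igha, the constant region of IgA (chromosome 12, 113254830 to 113260236), was at 2045 CPM in cluster 2, 367 in cluster 7 and 31.1 over the other 11 clusters together, and its log2 ratio of 5.99 was the highest of the genes ranked outside the V, D and J segments. Jchain (chromosome 5, 88519809 to 88527891), which joins the subunits of IgA and IgM polymers, was at 14482 CPM in cluster 2, 5785 in cluster 7 and 2674 in cluster 8, and between 10.2 and 125 in the rest. The IgG3 constant region Ighg3 was at 564 CPM against 723 in cluster 7, and Ighg2b at 84.8 against 1996 in cluster 7. The constant regions of clusters 2 and 7 therefore differed in order, with Igha above Ighg2b in cluster 2 and below it in cluster 7.

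Of 7 plasma cell genes, 6 were at least 2-fold higher in cluster 2, beside 18.7% of all genes tested, and the median log2 ratio was 2.71. These include Sdc1, the plasma cell surface proteoglycan CD138 (38.2 CPM against 4.59), Derl3 of endoplasmic reticulum quality control (61.0 against 8.46), Mzb1, a cochaperone of antibody assembly (423 against 98.4), and Xbp1, the transcription factor of secretory cells (316 against 78.6). Clusters 7 and 8 held them at like levels, with Xbp1 at 322 CPM and Mzb1 at 356 in cluster 7, and Mzb1 at 789 in cluster 8. Sdc1 and Derl3 were at 28.3 and 38.4 CPM in cluster 7. Per cell each of these was lower in cluster 2 than in cluster 7, as Mzb1 at 0.507 UMIs against 0.915. Ms4a1 (CD20), a gene of B cells before the plasma cell stage, was at 5.17 CPM in cluster 2 and 225 in cluster 8. Of 11 genes of the B cell list, 3 were at least 2-fold higher in cluster 2 and 6 at least 2-fold lower, beside 18.7% and 23.2% of all genes tested. Their median log2 ratio of -1.36 reversed to 2.68 without clusters 7, 8, 11 and 12. Slpi, a secreted protease inhibitor, ranked second by ratio (680 CPM against 22.5, 30.3-fold, 27.1 to 33.8). Without a map from UMIs to cells, the number of cells that held these transcripts was not determined, and doublets could not be called.

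The heat-shock part of the label rested on a pair of genes. Hspa1a and Hspa1b were each at their highest of the 12 clusters in cluster 2. Hspa1a (chromosome 17, 34969190 to 34972156, minus strand) was at 1164 CPM, with 1121 in cluster 5, 1080 CPM in cluster 10, 981 in cluster 9 and as little as 90.6 in cluster 8, and its ratio to the other 11 clusters together was 1.78 (1.68 to 1.89). Hspa1b (chromosome 17, 34956436 to 34959238, minus strand) was at 984 CPM, with 554 in cluster 10, 536 in cluster 9 and 47.8 in cluster 8, a ratio of 3.31 (3.09 to 3.54). Hspa1a was thus nearly level with clusters 5 and 10, and Hspa1b stood clear of the next cluster.

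These genes are close copies, and the likeness of their first transcribed bases bears on how 5′ reads could be told apart. The 250 bases before each transcription start differ at 3 positions, C44T, T47C and T249G, counted from 1 at the 5′ end of the printed window with the Hspa1a base first, and the first 50 transcribed bases at 1. The longest annotated transcripts, of 2967 and 2803 bases, aligned with 86.6% identity over 2992 columns, gaps included, and where along them the differences lie was not determined. The windows are shown in the direction of transcription from RefSeq (GRCm38.p6) so that the likeness of the genes behind the label can be seen, and capitals mark a match to GAANNTTC, the inverted repeat at the core of a heat shock element, which begins 104 bases before the start of both.
Hspa1a, chr17:34972157-34972406, minus strand: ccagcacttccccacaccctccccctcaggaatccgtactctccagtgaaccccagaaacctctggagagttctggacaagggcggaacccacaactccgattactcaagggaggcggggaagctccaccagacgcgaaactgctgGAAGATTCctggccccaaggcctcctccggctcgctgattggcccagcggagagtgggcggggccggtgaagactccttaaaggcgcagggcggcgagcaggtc
Hspa1b, chr17:34959239-34959488, minus strand: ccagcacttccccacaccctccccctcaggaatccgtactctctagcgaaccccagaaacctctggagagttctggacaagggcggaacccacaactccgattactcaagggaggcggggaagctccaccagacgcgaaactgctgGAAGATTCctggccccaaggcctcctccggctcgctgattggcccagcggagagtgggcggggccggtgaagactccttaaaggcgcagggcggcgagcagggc

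GAANNTTC reads the same on both strands, and 6.69% of all 32851 promoter windows of this length held it. Among tested genes matched to a window, the median log2 ratio was -0.10 for the 311 with a match and -0.01 for all 5016, and 16.7% of the genes with a match were at least 2-fold higher against 18.2% of all. The match is a description of letters only. Because the division of UMIs between the copies is uncertain, their sum is also given, at 2148 CPM in cluster 2 against 951 (2.26-fold, 2.16 to 2.36).

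Per cell the direction turned. Cluster 2 held 2.58 UMIs of the pair per cell and the other kidney clusters 4.35. Hspa1a alone was at 1.40 UMIs per cell against 2.99, and Hspa1b at 1.18 against 1.36. Both genes were also expressed in every other kidney cluster and were far lower in spleen, where no cluster exceeded 9.55 CPM of Hspa1a at 12W or 46.6 CPM at 28W. The excess in cluster 2 thus held as a share of its UMIs but not as a number per cell. Organ and preparation cannot be told apart in the difference between kidney and spleen, since collagenase and Percoll are described for kidney alone.

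**Figure D3:**
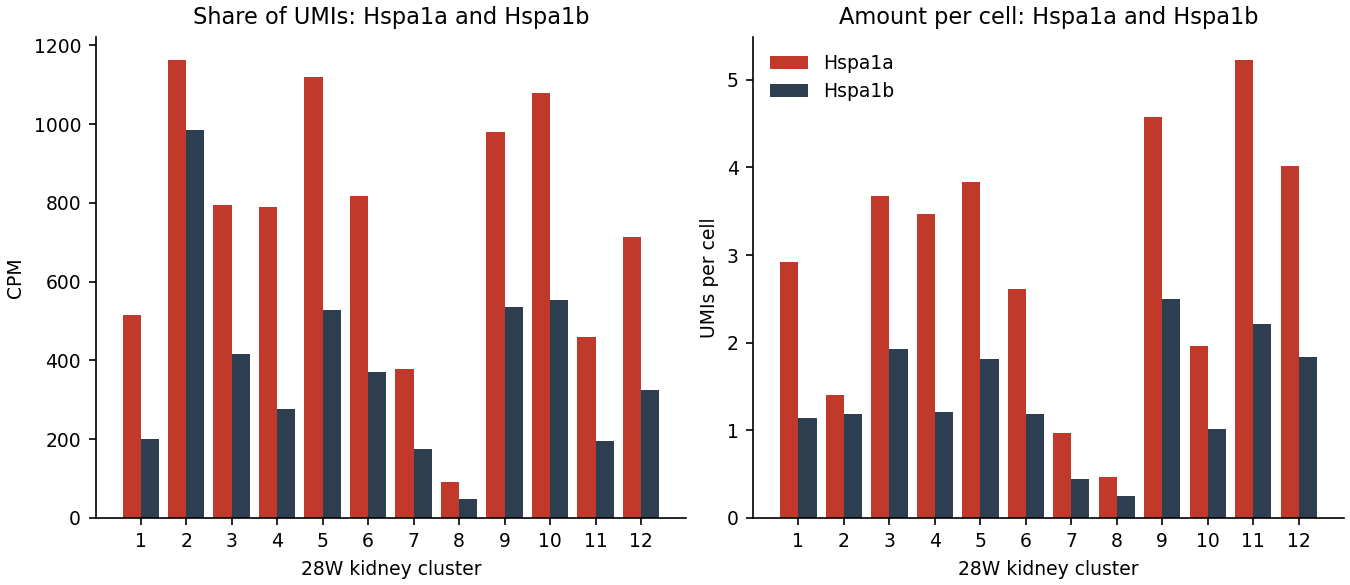
Hspa1a and Hspa1b in the 12 kidney clusters as CPM (left) and as UMIs per cell (right), both on linear axes from 0 and with no replicate. Cluster 2 was highest for both genes by CPM, at 1164 and 984, but held 1.40 and 1.18 UMIs per cell, with higher values of Hspa1a in most other clusters.

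Most other chaperones did not share this. Over 56 genes of 5 chaperone and heat-shock regulator lists, 3 were at least 2-fold higher in cluster 2 (Hspa1b, Dnajb4 and Fkbp5) and 16 at least 2-fold lower. Of the 56, 24 were at their lowest of the 12 clusters there against 8 at their highest. Like shares over all genes were not computed, so these ranks do not set the chaperones apart. The summed HSP70 family was at 4962 CPM, within the range of 4006 to 5531 CPM of the other clusters, and the median log2 ratio of its 12 genes was 0.35 (median limits -0.05 to 0.78). Over all genes tested, 18.7% were higher and 23.2% lower, so the count of 16 lower genes does not set the chaperone lists apart. The heat-shock part of the label therefore describes Hspa1b and, by less, Hspa1a, and not the chaperone lists as a whole.

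Within the HSP70 family, the constitutive member Hspa8 was lowest of all clusters in cluster 2, at 1433 CPM against 3133 (0.457-fold, 0.433 to 0.482). Hspa5, the endoplasmic reticulum member also called BiP, was at 702 CPM against 405, and second to cluster 8 at 1092, while per cell it was at 0.842 UMIs against 1.85. The mitochondrial member Hspa9 was at 41.3 CPM against 65.3. Among the HSP70 partners, Dnajb1, an inducible HSP40, was at 474 CPM against 339 (log2 ratio 0.48), Bag3, a stress-inducible nucleotide exchange factor, at 86.8 against 54.1 (0.67) and Dnaja1, a constitutive HSP40, at 331 against 734 (-1.15). Of the 12 clusters, cluster 2 was highest for Bag3 and lowest for Dnaja1, while Dnajb1 reached 483 CPM in cluster 5.

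The HSP90 genes gave a median log2 ratio of -0.57 (-0.20 against genes of like transcript length, a comparison described further on), with Hsp90aa1, the inducible cytosolic form, level at 682 CPM against 702, and Hsp90ab1, the constitutive form, at 1322 against 2193. Chaperonins and small heat-shock proteins were lower still, with a median of -1.28 (-0.67 against genes of like length). Hspe1 and Hspd1, which build the mitochondrial HSP10 and HSP60 chaperonin, were at 147 CPM against 508 and 64.1 against 196, both lowest of the 12 clusters. Hsf1, the transcription factor of the heat-shock response, was at 58.9 CPM against 37.9 (1.56-fold, 1.17 to 2.03) and at 0.0707 UMIs per cell against 0.173.

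Other stress lists gave medians that moved with the reference. In the unfolded protein response list 3 of 16 genes were at least 2-fold higher and none lower, beside 18.7% and 23.2% of all genes tested, namely Xbp1, Herpud1 (217 CPM against 79.9) and Chac1, the last on 2 UMIs. Its median log2 ratio was 0.28, 0.69 without clusters 7, 8, 11 and 12 in the reference, and 0.87 against genes of like length. Immediate early genes were mixed, with 3 of 21 higher and 4 lower, counts that lie near the same shares of all genes. Jun was at 851 CPM against 342 (1.02 UMIs per cell against 1.57) and Junb at 377 CPM against 770. Of 19 cell death and p53 target genes none was at least 2-fold higher and 6 were lower, beside 18.7% and 23.2% of all genes, and the median of -0.72 became 0.19 against genes of like length, with Bax at 84.8 CPM against 170 and Bcl2 at 85.8 against 44.1. Oxidative stress and metal response genes had a median of -0.32, with 5 of 14 at least 2-fold lower and none higher, beside the same shares of all genes.

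Of the 4 genes of the sort, 1 was at least 2-fold lower in cluster 2 and none higher. Beside 23.2% and 18.7% of all genes tested, this count does not set them apart. Cd8a was at 445 CPM in cluster 2 against 748, Cd8b1 at 471 against 1140, Pdcd1, which encodes PD-1, at 65.1 against 117, and Cd44 at 85.8 against 73.9. Their sum ranked 10th of the 12 clusters, and per cell they came to 1.28 UMIs against 9.51. How much of this was free RNA was not tested.

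Among 18 T cell identity genes, 7 were at least 2-fold lower in cluster 2 and none higher, beside 23.2% and 18.7% of all genes tested, with a median log2 ratio of -0.44. The CD3 chains of the T cell receptor complex led, with Cd3g at 310 CPM against 1433 (-2.21), Cd3e at 400.0 against 1336 (-1.74) and Cd3d at 396 against 1181 (-1.57). Others were level or above, as Lck, the proximal receptor kinase, at 968 CPM against 764 (0.34) and Ptprc, which encodes CD45, at 786 against 460 (0.77), the highest of the 12 clusters by CPM. Per cell both were lower, with Lck at 1.16 UMIs against 3.50 and Ptprc at 0.943 against 2.10. Receptor constant regions lay between, with Trac at 255 CPM against 283. T cell receptor beta V segments summed to 277 CPM in cluster 2 and 1783 in the other clusters, and alpha V segments to 269 and 871. Cd4 and Foxp3, markers of other T cells, had 0 UMIs, against 4.07 and 2.42 CPM in the other clusters. By a limit of 3 counts, or 3.10 CPM, Cd4 was at least 1.31-fold lower and Foxp3 could not be placed.

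Effector genes were among the lowest. Of 12 cytotoxic genes 7 were at least 2-fold lower and none higher, beside 23.2% and 18.7% of all genes tested. Their median log2 ratio was -1.24, and their sum of 2825 CPM was the lowest of the 12 clusters. Ccl5, a chemokine of effector CD8+ T cells, was at 1143 CPM against 7707 (0.148-fold, 0.140 to 0.157), and Gzmk, a granzyme, at 79.6 against 591. Nkg7, a granule membrane protein, was at 388 CPM against 1892, and Gzmb at 63.0 against 290. Prf1, the pore-forming perforin, differed less (48.6 CPM against 84.5), and Fasl was at 65.1 against 72.9. Beside 18.7% higher and 23.2% lower of all genes tested, none of 9 inhibitory receptor genes (7 tested) was at least 2-fold apart in either direction. Their median log2 ratio was -0.50 (median limits -1.21 to 0.15), and they summed to 372 CPM against 475. Lag3 stood above the other clusters, at 83.7 CPM against 64.6. So did Tox, a transcription factor of chronically stimulated T cells, at 92.0 against 75.1.

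Tissue residency and memory lists had medians near 0. Of 10 residency genes, Cxcr6 (230 CPM against 486) and Cxcr3 (192 against 429), both chemokine receptors, were at least 2-fold lower and Zfp683, which encodes the residency factor Hobit, higher on 9 UMIs (9.30 CPM against 3.35), while Runx3, a transcription factor of CD8+ T cells, was at 216 against 156. Beside 18.7% and 23.2% of all genes tested, the residency counts do not set that list apart. The memory and homing list gave a median of 0.07 and the interferon-stimulated genes -0.51. Of 13 cytokine genes only 5 were at 20 CPM or more. Among these 5, 1 was at least 2-fold higher and 2 were lower, beside 18.7% and 23.2% of all genes tested. Genes of the cell cycle were at least 2-fold lower in 9 of 11 cases (median -2.39), beside 23.2% of all genes tested. The reference, however, holds cluster 11, with 17038 CPM of the list, and without clusters 7, 8, 11 and 12 the median was -0.73. The sum of 823 CPM in cluster 2 lay below 933 in cluster 6 and 980 CPM in cluster 10. Mki67 was at 89.9 CPM against 81.9 and Cdk1 at 1.03 against 52.4, with 328 CPM in cluster 11.

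**Figure D4:**
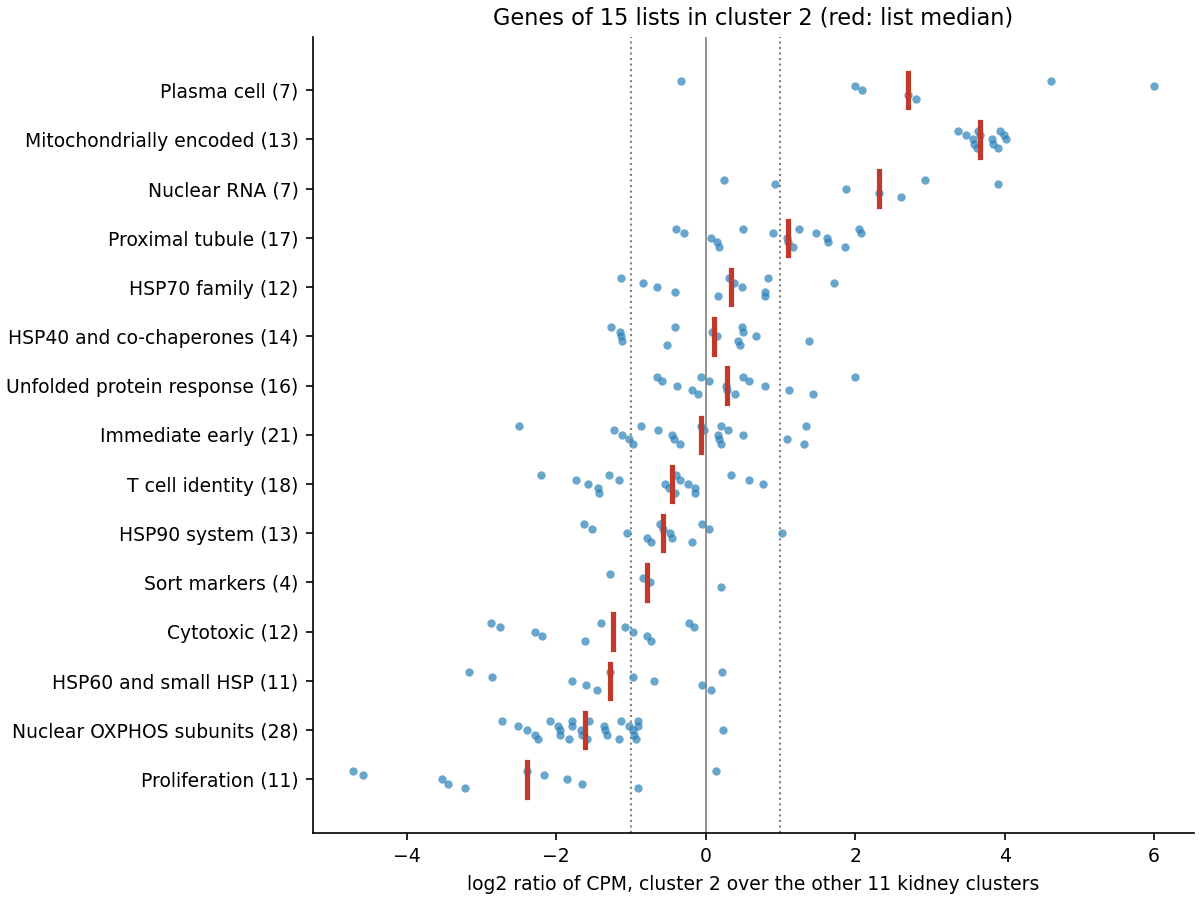
log2 ratio of CPM in cluster 2 over the other 11 kidney clusters (1 CPM added to each) for every gene found of 15 lists, with the number of genes in brackets, red bars at list medians and dotted lines at 2-fold. Mitochondrial and plasma cell genes lie to the right (medians 3.67 and 2.71), the HSP70 family lies around 0 with Hspa1b alone past 1, and nuclear OXPHOS (respiratory chain) subunits and proliferation genes lie to the left.

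Across protein-coding genes, the ratio followed transcript length. Over 6240 nuclear genes, the log2 ratio and the length of the longest annotated transcript correlated with a Spearman rho of 0.63, given as a description across genes that share 1 library and are not independent. With the genes divided into 5 classes of nearly equal size by length, the median log2 ratio was -1.12 in the shortest class (312 to 1860 bases) and -0.59, -0.02, 0.47 and 0.96 in the following classes, the longest starting at 5346 bases. Of the shortest class 56.3% were at least 2-fold lower and 2.48% at least 2-fold higher. Of the longest class 3.13% were lower and 47.4% higher.

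Ribosomal protein genes were at least 2-fold lower in 73 of 81 cases, beside 23.2% of all genes tested, and lowest of the 12 clusters in 78. Their median log2 ratio was -1.82, with Rpl30 the lowest, at 673 CPM against 4534. Set against genes of the same length class, their median was -0.75. Kmt2d, a histone methyltransferase of 19823 bases chosen after its value was seen, was at 158 CPM against 28.0 (2.45). Among the T cell identity genes, the highest ratio belonged to Ptprc, of 5740 bases, and the lowest to Cd3g and Cd3e, of 2539 and 2550 bases. Mki67, a cell cycle gene that was not lower by CPM, has a longest transcript of 10061 bases.

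Other lists also moved when set against their length class. The HSP70 family went from a median of 0.35 to -0.04, and Hspa1b alone stayed 2.31 above the median of its class and Hspa1a 0.85. Cytotoxic genes went from -1.24 to -0.60, nuclear OXPHOS subunits from -1.62 to -0.80 and T cell identity genes from -0.44 to -0.25. Mitochondrially encoded genes went from 3.67 to 4.79. Oxidative stress, cell death and interferon-stimulated genes turned from below to above 0, at 0.19, 0.19 and 0.35, as did cytokine genes (-0.23 to 0.89) and immediate early genes (-0.07 to 0.16), while memory and homing genes turned from 0.07 to -0.37. Cytotoxic, OXPHOS and T cell identity genes thus kept their direction at a smaller size.

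No other kidney cluster showed the length relation to this degree. Cluster 10 came nearest with a rho of 0.54 and medians from -0.30 in the shortest class to 0.72 in the longest. Kidney cluster 3, with 4621 UMIs per cell, had a rho of 0.51 over a narrower span (-0.05 to 0.46), and the others ranged down to -0.36 in cluster 1. In cluster 7, the other cluster rich in mitochondrial UMIs, it ran the other way, from 0.00 to -0.41 (rho -0.20). Each spleen library had 1 cluster with the same relation and few UMIs per cell, namely cluster 8 of 12W spleen (307 cells, 928 UMIs per cell, rho 0.64) and cluster 11 of 28W spleen (215 cells, 1288 UMIs per cell, rho 0.63). Spleen clusters with more UMIs per cell reached 0.52 (28W cluster 5) and 0.48 (12W cluster 1). Cluster 8 of 28W spleen, with 1020 UMIs per cell, had a rho of -0.15. The part of depth in this relation was not tested.

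**Figure D5:**
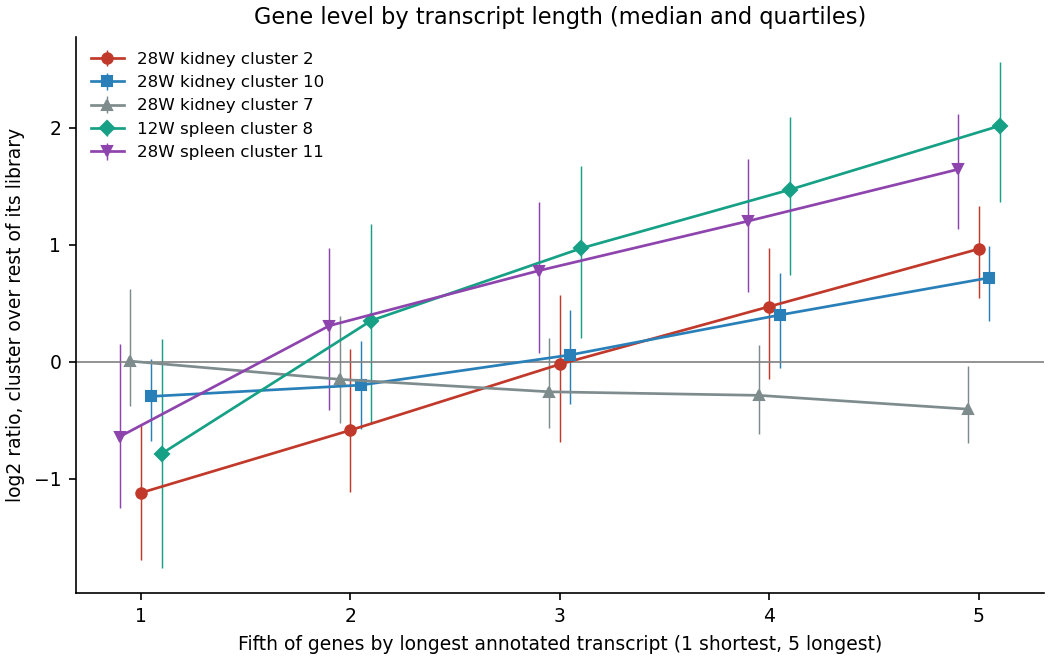
Median log2 ratio of a cluster over the rest of its own library in 5 classes of protein-coding genes by longest annotated transcript (x axis, shortest to longest), with bars from the lower to the upper quartile of genes. Cluster 2 goes from -1.12 to 0.96, the spleen clusters 8 (12W) and 11 (28W) climb likewise from -0.79 to 2.02 and from -0.64 to 1.64, kidney cluster 10 goes from -0.30 to 0.72, and kidney cluster 7 goes from 0.00 to -0.41.

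The spleen clusters shared further traits with cluster 2 in separate libraries. Mitochondrial genes took 8.98% of UMIs in cluster 8 of 12W spleen and 6.64% in cluster 11 of 28W spleen, against at most 1.71% in any other spleen cluster. Malat1 stood at 18143 and 17888 CPM there, close to the 19221 CPM of cluster 2, and Hspa8 was at 706 and 1300.1 CPM against 2819 and 2772 in the rest of the respective library. Of the 1038 genes at least 2-fold higher in cluster 2 and tested in both libraries, 936 (90.2%) were also at least 2-fold higher in cluster 8 of 12W spleen, where 42.6% of all shared genes were, and these 936 were 36.7% of the genes higher there. Of 1402 lower genes 772 (55.1%) were lower there too, where 17.0% of all were.

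For cluster 11 of 28W spleen the shares were 919 of 1033 (89.0%), beside 37.6% of all shared genes, and 589 of 1411 (41.7%), beside 12.5%. In opposite directions stood 12 and 7 genes that were higher in cluster 2 and lower in the respective spleen cluster, and 55 and 49 that were lower in cluster 2 and higher there. Several T cell genes stood differently. Cd3e had log2 ratios of 0.39 and 0.41 in them and -1.74 in cluster 2, Ptprc 3.37 and 2.76 against 0.77, and the 12 cytotoxic genes medians of 0.63 and 0.77 against -1.24, where the medians of all genes were 0.71 and 0.58. Others were not higher in the spleen clusters, with Cd3g at -0.35 and -0.01 (-2.21 in cluster 2) and Ccl5 at -2.09 and -0.92 (-2.75 in cluster 2), and the cytotoxic sum was lower than in the rest of each library, at 1703 CPM against 2457 and 4720.2 against 5618. Hspa1a was at 3.51 and 28.9 CPM, Jchain at 28.1 and 1004 and Gm42418 at 10823 and 27303.

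By overall profile the nearest of the 32 other clusters was kidney cluster 10, at a median absolute log2 ratio of 0.48, then kidney cluster 3 at 0.70 and 28W spleen cluster 5 at 0.72. Cluster 10 shared the low UMIs per cell, the high Gm42418 and the Hspa1a level (1080 CPM), but not the mitochondrial share (1.50%) or the immunoglobulin share (0.0341%). It kept ribosomal protein genes at 24.0% of UMIs.

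Genes of other kidney cells were counted in cluster 2 as well. Proximal tubule genes summed to 1967 CPM, second to 16942 in cluster 7 and above the 17.1 to 438 CPM of the other 10, and 16 of the 17 had at least 1 UMI. Of these 17, 10 were at least 2-fold higher than in the other clusters together (median log2 ratio 1.11), beside 18.7% of all genes tested. Per cell, however, the sum of the 17 was 2.36 UMIs in cluster 2 against 4.17 over the other 11 clusters together. The latter value was set mainly by cluster 7, which held 25128 UMIs of the list beside 1903 in cluster 2. Lrp2, the endocytic receptor megalin, was at 57.9 CPM, Slc34a1, the sodium phosphate transporter, at 202 and Gpx3, a secreted glutathione peroxidase, at 927, against 251, 1039 and 8049 in cluster 7.

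The tubule genes were not in 1 ratio to cluster 7. Over 16 of them with 20 UMIs or more in clusters 2 and 7 together the level in cluster 2 ran from 0.0437 of that in cluster 7 for Fbp1 to 0.279 for Cubn, with a median of 0.129, and this ratio correlated with transcript length across the 16 genes (Spearman rho 0.80, given as a description). The mitochondrial share ran at 2.53 times that of cluster 7. Distal genes were at 243 CPM in sum, with Umod, uromodulin of the thick ascending limb, at 12.4 CPM on 12 UMIs beside 14.8 in cluster 7, and of 10 tubule injury genes 8 had 0 UMIs. The part of tubule RNA in the mitochondrial level was not tested.

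Summed haemoglobin and erythroid genes were higher by CPM in cluster 2 than in any other kidney cluster, at 2147 CPM against 1809 in cluster 11, with Hbb-bs at 1583 CPM against 1116 in cluster 11 and 44.5 in cluster 7, and Hba-a1 at 518 against 398 in cluster 11. Hbb-bt, the neighbouring beta globin gene, was at 42.4 CPM and 282 in cluster 11. Per cell, Hbb-bs was at 1.90 UMIs in cluster 2 and 12.7 in cluster 11, so the order of these clusters turned with the scale. The globin copies are alike in sequence, so their division is uncertain. Neutrophil genes were near absent, on 7 UMIs in sum, with S100a8 at 0 UMIs and S100a9 on 3 UMIs. S100a8 was at least 68.9-fold lower than the 214 CPM of the other clusters, by a limit of 3 counts in the cluster. Macrophage and other myeloid genes summed to 335 CPM, 5th of the 12 clusters, between 30091 in cluster 12 and 202 in cluster 5, with C1qa at 5.17 CPM. Cluster 12 held S100a8 at 5942 CPM, and without clusters 7, 8, 11 and 12 the myeloid and neutrophil medians were above 0, at 1.01 and 0.88. Vessel, glomerulus and stroma genes summed to 211 CPM, second to 1126 in cluster 12.

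Counted per cell, 52 genes were at least 2-fold higher in cluster 2 than in the other kidney clusters. They comprised 26 immunoglobulin segments, the 13 mitochondrial genes, Jchain, Igha and Ighg3, and 10 others, which were Lars2, Gm42418, Gm26917, Slpi, Hbb-bs, Hba-a1, Ccr10, Ttn, Gm10800 and Gm47283, all named after their values were seen. Ccr10, a chemokine receptor of IgA plasma cells, was at 0.0335 UMIs per cell against 0.00332. No gene of the chaperone, T cell, cytotoxic or tubule lists was among the 52.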

How the data were processed

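Libraries were made with 10x Genomics 5′ v2 chemistry, and the submitters' processing notes name Cell Ranger 2.1.1, R 3.6.1 and GRCm38. The authors deposited, for each library, a cluster number per barcode and, per cluster, mean counts per gene (scaled so that each column of a library sums to the same value), a log2 fold change and an adjusted p-value. The last 2 columns hold the authors' own comparisons and were not used. Each mean-count column held whole multiples of its smallest value (100% within 0.001), which was taken as 1 UMI. UMIs were summed over the other 11 clusters, expressed as CPM, and compared as log2 ratios after adding 1 CPM, which understates changes of low genes. Genes at 20 CPM or more in either were counted at a 2-fold limit, while list counts cover all list genes found. Named genes were the 15 highest and 15 lowest ratios at 50 CPM or more, with V, D and J segments ranked apart, plus list members. Intervals were exact Poisson, Clopper-Pearson binomial or conditional binomial limits at 95%. List medians are given with the medians of the genes' lower and upper limits. Of 17790 gene identifiers, 17762 were in GENCODE M21. The rule, the cluster and the 31 gene lists were chosen with earlier results of these data known. Cell filters and doublet treatment are not given in the sources used here, and UMIs per cell could not be thinned without a cell matrix. Calculations used Python 3.11.15, pandas 2.3.3, SciPy 1.17.1 and Biopython 1.88 and were tested on simulated data.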

Additional observations from a re-analysis of the deposited data

How the results depend on the processing

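No paired analysis was possible because each table pools the 4 samples of its group, and leaving out a replicate was not possible for the same reason. On the UMIs per cell scale, genes at least 2-fold higher went from 1200 to 52 and lower from 1494 to 5088, and the medians became -1.58 for the HSP70 family, 1.74 for mitochondrial genes and, reversed, -0.82 for proximal tubule genes. The count of higher genes was 697 with 10 CPM added, 1986 at a minimum of 5 CPM and 630 at 50 CPM. With the unweighted mean of the other clusters the mitochondrial median was 3.36 and the tubule median 0.29, and without clusters 7, 8, 11 and 12 they were 4.14 and 4.89. A total without mitochondrial, ribosomal protein and receptor segment genes gave 3.77 for mitochondrial genes. Chosen after seeing the data, leaving out cluster 7 alone gave 4.90 for tubule genes, so cluster 7 sets their size, and the comparison within length classes gave 4.79 for mitochondrial genes. Without clusters 7, 8, 11 and 12, B cell, myeloid and neutrophil medians reversed to 2.68, 1.01 and 0.88. Within length classes, oxidative stress, cell death and interferon-stimulated medians reversed to 0.19, 0.19 and 0.35. The mitochondrial share was 13.7% of UMIs without ribosomal protein and receptor segment genes, UMIs per cell were 977 without mitochondrial and ribosomal protein genes, and the nearest cluster remained kidney cluster 10 at 0.53 (minimum 50 CPM) and 0.48 (without mitochondrial and chaperone genes). The length rho was 0.48 by genomic span, 0.62 without ribosomal protein genes, 0.66 at 50 CPM and 0.59 without clusters 7, 8, 10, 11 and 12, all chosen after seeing the data. With 1 library per group, differences between mice or preparations cannot be told apart from those between kidney and spleen or between ages. Within the kidney library, cells of a cluster could not be traced to single samples.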
